A study of Mus musculus with 12 samples.

Results

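The atrioventricular canal and pacemaker regulators described here are 10 genes, Tbx2, Tbx3, Tbx18, Msx1, Msx2, Bmp2, Shox2, Isl1, Rspo3 and Cpne5. They were taken by symbol from the deposited count table, 1 row per Ensembl gene, and are 10 of its 40800 genes. No cut on a value or count was set, but the genes were chosen with earlier results of these data known. All 10 passed the low-count filter of the test over all genes. They were followed in bulk RNA sequencing of mouse heart ventricles from embryonic day 12.5, with 6 libraries from Wnt gain-of-function (GOF) embryos and 6 from control embryos. The genotype is given by name only. The labels name no allele, no Cre driver, no strain and no sex, and leave unsaid how many embryos went into 1 library and whether the canal itself was dissected with the ventricles. The p-values given here therefore measure the spread between libraries, which may in part be technical.

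The atrioventricular canal is the slowly conducting myocardium between atria and ventricles. In it, Bmp2 made by the canal myocardium induces Tbx2 and Tbx3, T-box repressors that keep the chamber programme off, while Msx1 and Msx2 are homeodomain factors downstream of bone morphogenetic protein (BMP) signals. The pacemaker programme of the sinus node rests on Tbx18, Shox2, Isl1 and Tbx3. Canonical Wnt signalling, in which stabilised beta-catenin acts through TCF/LEF factors, takes part in specifying the canal, and R-spondins raise it by protecting Wnt receptors at the cell surface.

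The GOF libraries held 12127026 to 17184662 counts and the control libraries 10130088 to 17526325. Axin2, a feedback inhibitor and standard readout of canonical Wnt signalling, was at 3.77 CPM (read counts scaled to library size with edgeR's TMM factors) in GOF replicate 5, which lay within the control range of 1.39 to 4.13 CPM, whereas the GOF mean was 18.3 CPM. Notum, a secreted Wnt inhibitor, was at 1.18 CPM in that library, a little above the highest control at 0.874 CPM. Nkd1, an intracellular Wnt inhibitor, and Lef1, which binds DNA with beta-catenin, were there at 4.14 and 30.4 CPM, inside their control ranges of 2.58 to 7.17 and 9.32 to 40.7 CPM. In GOF replicate 5 the Wnt readout was thus near or within the control range, so the regulators called without it are given as well. That library was picked from these same data, and Msx2 followed Nkd1 and Axin2 across the 12 libraries (Pearson's r = 0.971 and 0.960). It also held an Isl1 value far from the other GOF libraries, at 11.5 CPM. Calls without it are therefore a description and not independent support. The libraries were also cut into 3 sets by their deviations from the group means, and each set held 2 libraries of each group. The number of sets was chosen with earlier work on these data known. Set 1 held GOF replicates 5 and 6 with control replicates 1 and 6, set 2 held GOF 1 and 2 with control 2 and 3, and set 3 held GOF 3 and 4 with control 4 and 5. Set 1 was loose, with correlations of these deviations between its libraries from -0.0754 to 0.134. Those within set 2 ran from 0.463 to 0.605, and those within set 3 from 0.362 to 0.492. The pairs GOF 3 and 4, GOF 1 and 2, and control 2 and 3 were the closest of all, with a mean chi-square per gene of 3.07, 3.10 and 3.32 against 12.8 for the next pair, and may each be 1 sample prepared more than once. The labels list them as separate samples, and they were counted so.

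Among the regulators, Msx2 lay furthest up and Isl1 furthest down in the GOF ventricles, while Tbx2, Tbx18, Msx1, Bmp2 and Shox2 had fitted changes between -0.15 and 0.29 on the log2 scale. None passed edgeR's quasi-likelihood test over all 14774 tested genes, in which 74 genes, 0.501%, were called at an adjusted p under 0.05. Of the 10 regulators, 5 lay above 0 and 5 below, with a median log2 fold change of 0.08, against 0.00 over all tested genes, of which 50.4% lay above 0. An unadjusted p under 0.05 was reached by 4 of 10, Msx2, Isl1, Cpne5 and Tbx3, against 6.30% of all tested genes. The groups overlapped in all 10 genes, and 0.460% of tested genes had groups that did not overlap. Without GOF replicate 5, edgeR called Msx2 as higher and Isl1 as lower, 2 of 10 against 1.19% of all genes tested there, and these same genes were the regulators whose groups then stood apart, against 1.85% of tested genes. DESeq2 called 1 of 10 regulators, against 1.08% of genes, limma-voom 0 of 10, against 0.0406%, edgeR with the replicate number as a block 0 of 10, against 0.372%, and edgeR on summed closest pairs 0 of 10, against 0.00662%.

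**Figure D1:**
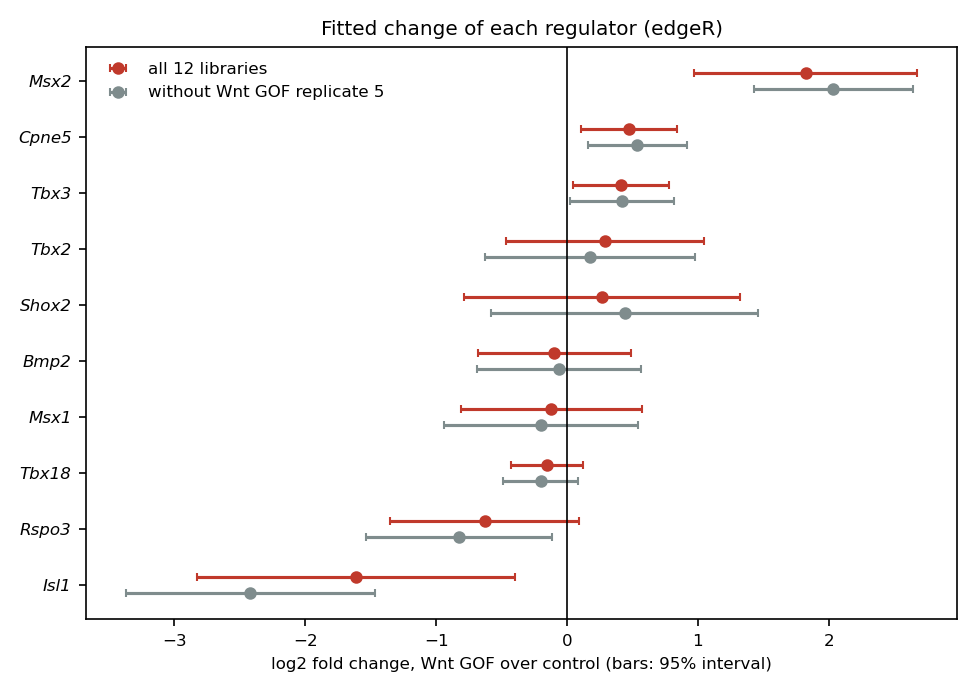
Fitted log2 fold change of each regulator, Wnt GOF over control, from edgeR, with all 12 libraries (red) and without GOF replicate 5 (grey); bars are 95% intervals. Msx2 stands at 1.82 and Isl1 at -1.61 with all libraries, at 2.04 and -2.42 without that replicate, and the other 8 genes lie between -0.63 and 0.48 with all libraries.

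Of the secreted signals, Bmp2 (ENSMUSG00000027358, chromosome 2), the ligand that patterns the canal, was measured at 8.50 to 24.1 CPM in GOF libraries, with a median of 12.8 CPM, and at 9.53 to 21.3 CPM in control libraries, with a median of 18.6 CPM. The groups overlapped over nearly their whole ranges. The fitted log2 fold change was -0.10 ± 0.298 (SE), with an adjusted p of 0.999 in edgeR. Bmp2 did not keep 1 direction across the library sets. In set 1 the GOF libraries were at 12.2 and 13.4 CPM, against 20.2 and 21.3 CPM in the control libraries. In set 3 they were at 23.5 and 24.1 CPM, against 17.1 and 20.2 CPM in the control libraries.

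Rspo3 (ENSMUSG00000019880, chromosome 10) encodes an R-spondin, a secreted enhancer of Wnt signalling. It was measured at 5.98 to 22.4 CPM in GOF libraries, with a median of 13.2 CPM, and at 9.47 to 33.2 CPM in control libraries, with a median of 22.7 CPM. The ranges overlapped, and the log2 fold change of -0.63 ± 0.369 had an adjusted p of 0.968 in edgeR. Within the library sets the order was the same each time. In set 1 the GOF libraries held 10.6 and 22.4 CPM, against 24.99 and 33.2 CPM in control libraries. Set 2 had 5.98 and 7.14 CPM in GOF, against 9.47 and 13.2 CPM in control, and set 3 had 15.9 and 19.8 CPM in GOF, against 22.7 and 22.8 CPM in control. Rspo3 was the only regulator whose GOF libraries lay on 1 side of the control libraries in all 3 sets, as did 2.96% of tested genes in either direction. With library set as a term in the model it still missed the threshold (edgeR adjusted p = 0.102). GOF replicate 5 held the highest GOF value, and without it the log2 fold change was -0.83 with an unadjusted p of 0.0411 and an adjusted p of 0.597 in edgeR.

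Msx2 (ENSMUSG00000021469, chromosome 13), a homeodomain repressor and known target of BMP signals, was measured at 2.00 to 14.6 CPM in GOF libraries, with a median of 10.7 CPM, and at 0.793 to 3.83 CPM in control libraries, with a median of 3.44 CPM. In 5 of 6 GOF libraries it lay above every control library, and the sixth was GOF replicate 5, at 2.00 CPM. The means were 9.84 ± 4.55 CPM in GOF and 2.78 ± 1.32 CPM in control libraries (SD, n = 6 each). Its log2 fold change was 1.82 ± 0.436, with a 95% interval of 0.97 to 2.68. The adjusted p was 0.133 in edgeR, and a two-sided exact permutation test of the 12 libraries gave an unadjusted p of 0.0108. DESeq2 called it (adjusted p = 0.0202), as did edgeR without GOF replicate 5, where the GOF libraries held 7.91 to 14.6 CPM and the log2 fold change was 2.04 (adjusted p = 0.00229). With the closest pairs summed, edgeR gave an adjusted p of 0.824 for a log2 fold change of 1.59. It also missed the threshold with library set in the model (edgeR adjusted p = 0.0868) and in limma-voom (adjusted p = 0.311). The same held with the replicate number as a block (edgeR adjusted p = 0.398) and without the count filter (edgeR adjusted p = 0.317).

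Msx1 (ENSMUSG00000048450, chromosome 5) is the close relative of Msx2, with a similar homeodomain and overlapping sites of expression. It was at 1.09 to 4.58 CPM in GOF libraries, with a median of 3.82 CPM, and at 1.29 to 4.73 CPM in control libraries, with a median of 4.24 CPM. The groups overlapped in the whole and within each of the 3 library sets. The log2 fold change was -0.12 ± 0.353, with an adjusted p of 0.999 in edgeR.

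Inside each library, where depth and scaling cancel, the ratio of Msx2 to Msx1 counts was 8.64, 3.97, 3.42, 3.75, 0.482 and 2.61 in GOF replicates 1 to 6, and between 0.615 and 0.870 in the 6 control libraries. Msx2 outnumbered Msx1 in 5 of 6 GOF libraries and in 0 of 6 control libraries. GOF replicate 5 had the lowest ratio of all 12. This ratio was chosen after its values were seen and is given as a description. Counts behind it were low, with 27 to 206 for Msx2 and 14 to 62 for Msx1 in GOF libraries, and 8 to 60 for Msx2 and 13 to 69 for Msx1 in control libraries.

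The promoters of both Msx genes, and of Isl1 and Shox2 further on, are printed to show which short motifs stand near the starts of the genes that parted most between the groups and of their partners. They are RefSeq sequences of build GRCm38.p6, from 250 bases before to 50 after the start, and 6 of the 10 regulators had an entry, Tbx18, Msx1, Msx2, Shox2, Isl1 and Cpne5. Each was searched on both strands for CTTTGA, a core of TCF/LEF sites, for GGTGTG, a core of T-box sites, and for TAATTA, a core bound by many homeodomain proteins. Over all 32851 promoters of the table, 16.0% held the first, 19.0% the second and 5.29% the third. Capitals mark a match. Msx2 lies at chr13:53472731-53473030 and Msx1 at chr5:37824536-37824835, both on the minus strand, and only the Msx2 window held a match, TAATTA from base 64.

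Msx2: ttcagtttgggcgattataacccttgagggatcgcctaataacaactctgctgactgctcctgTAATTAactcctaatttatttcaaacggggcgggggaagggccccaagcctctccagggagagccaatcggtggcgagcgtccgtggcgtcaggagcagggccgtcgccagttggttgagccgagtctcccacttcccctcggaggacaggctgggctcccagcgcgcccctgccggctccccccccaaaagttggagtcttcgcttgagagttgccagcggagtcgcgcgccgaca

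Msx1: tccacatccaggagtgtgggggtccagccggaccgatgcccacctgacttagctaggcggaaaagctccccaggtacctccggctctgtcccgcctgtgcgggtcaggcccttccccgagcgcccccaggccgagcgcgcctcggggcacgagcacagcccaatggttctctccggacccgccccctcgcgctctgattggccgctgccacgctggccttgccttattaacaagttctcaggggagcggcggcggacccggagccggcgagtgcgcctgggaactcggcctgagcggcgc

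**Figure D2:**
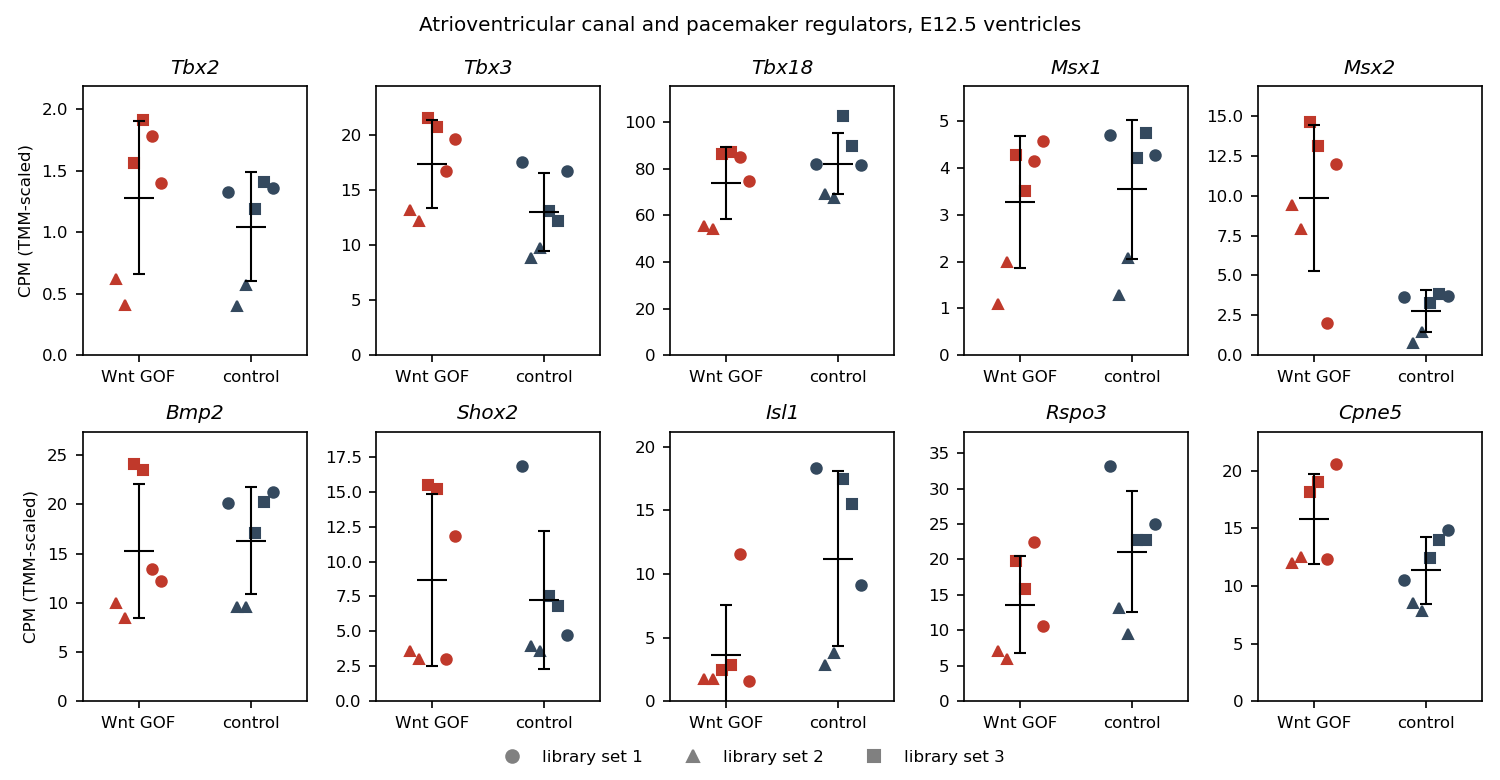
CPM of each regulator in the 6 Wnt GOF libraries (red, left) and the 6 control libraries (blue, right), on linear axes from 0; marker shapes give the library set, and bars the mean and SD, cut at 0 where they reach below it. For Msx2, 5 GOF libraries lie between 7.91 and 14.6 CPM above all control libraries, and for Isl1, 5 GOF libraries lie between 1.55 and 2.87 CPM below all of them.

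The T-box genes differed less between the groups. Tbx3 (ENSMUSG00000018604, chromosome 5), a repressor that marks both the canal and the conduction system, was at 12.2 to 21.5 CPM in GOF libraries, with a median of 18.1 CPM, and at 8.83 to 17.5 CPM in control libraries, with a median of 12.6 CPM. In 3 of 6 GOF libraries it lay above every control library. The log2 fold change was 0.41 ± 0.187, with an unadjusted p of 0.0443 and an adjusted p of 0.760 in edgeR, and the two-sided exact permutation test gave an unadjusted p of 0.0823. EdgeR called it once library set was a term in the model (adjusted p = 0.0400), as it did 2.00% of tested genes, Cpne5 among them. The sets were drawn from the same libraries' deviations and hold the closest pairs, so the spread within them may be technical. With the closest pairs summed, Tbx3 had an unadjusted p of 0.0970 and an adjusted p of 1.00 in edgeR. In set 3, GOF libraries held 20.7 and 21.5 CPM, against 12.2 and 13.1 CPM in control libraries, and in set 2 they held 12.2 and 13.2 CPM, against 8.83 and 9.70 CPM. In set 1 the groups overlapped.

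Tbx2 (ENSMUSG00000000093, chromosome 11), the other canal repressor, was the least abundant regulator, with 7 to 30 counts in GOF libraries and 4 to 22 in control libraries. It was at 0.410 to 1.91 CPM in GOF libraries, with a median of 1.48 CPM, and at 0.397 to 1.41 CPM in control libraries, with a median of 1.26 CPM. The groups overlapped, and the log2 fold change of 0.29 ± 0.385 had an adjusted p of 0.999 in edgeR.

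Tbx18 (ENSMUSG00000032419, chromosome 9) marks the sinus horn and, in the heart at this age, also the epicardium. It was at 54.0 to 87.1 CPM in GOF libraries, with a median of 80.1 CPM, and at 67.5 to 103 CPM in control libraries, with a median of 82.0 CPM. In 2 of 6 GOF libraries it lay below every control library, and the others overlapped. The log2 fold change was -0.15 ± 0.139, with an adjusted p of 0.999 in edgeR. Relative to Tbx18 in the same library, Tbx3 stood at 0.195 to 0.262 in GOF libraries and at 0.128 to 0.213 in control libraries, again a ratio chosen after seeing the values.

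Isl1 (ENSMUSG00000042258, chromosome 13) encodes a LIM homeodomain factor of heart progenitors, of the sinus node and of several neuron types. It was at 1.55 to 11.5 CPM in GOF libraries, with a median of 2.11 CPM, and at 2.88 to 18.3 CPM in control libraries, with a median of 12.3 CPM. In 5 of 6 GOF libraries it lay below every control library, at 1.55 to 2.87 CPM against a lowest control of 2.88 CPM, and GOF replicate 5 was the exception at 11.5 CPM. These 5 libraries held 21 to 45 Isl1 counts, GOF replicate 5 held 156 and the control libraries 29 to 220. The means were 3.65 ± 3.90 CPM in GOF and 11.2 ± 6.88 CPM in control libraries (SD, n = 6 each). The log2 fold change was -1.61 ± 0.620, with a 95% interval of -2.83 to -0.40. The adjusted p was 0.586 in edgeR, and the two-sided exact permutation test gave an unadjusted p of 0.0238. Without GOF replicate 5 edgeR called it, with a log2 fold change of -2.42 and an adjusted p of 0.0280. With library set in the model it was not called (edgeR adjusted p = 0.193). With the closest pairs summed the unadjusted p was 0.0653 and the adjusted p 1.00 in edgeR. In bulk tissue, fewer cells that express a gene and less of its RNA per cell cannot be told apart.

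The size of the Isl1 difference varied with the library set. In set 3 the GOF libraries held 2.47 and 2.87 CPM, against 15.5 and 17.5 CPM in control libraries. In set 2 they held 1.71 and 1.76 CPM, against 2.88 and 3.79 CPM in control libraries. In set 1 GOF replicate 6 held 1.55 CPM and GOF replicate 5 held 11.5 CPM, against 9.16 and 18.3 CPM in control libraries. The lower position of the GOF libraries was thus widest in set 3 and narrow in set 2, where control libraries were also low.

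Shox2 (ENSMUSG00000027833, chromosome 3), which in the sinus node opposes the working myocardial programme and is an activator of Isl1, was at 2.99 to 15.5 CPM in GOF libraries, with a median of 7.69 CPM, and at 3.62 to 16.8 CPM in control libraries, with a median of 5.81 CPM. The ranges overlapped, though 3 of 6 GOF libraries lay below every control library. The log2 fold change of 0.27 ± 0.537 had an adjusted p of 0.999 in edgeR. As with Bmp2, the direction changed between library sets. In set 3 GOF libraries held 15.2 and 15.5 CPM, against 6.85 and 7.54 CPM in control libraries. In set 2 they held 2.99 and 3.57 CPM, against 3.62 and 3.97 CPM in control libraries.

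Within libraries, the ratio of Isl1 to Shox2 counts was 0.478, 0.588, 0.160, 0.188, 3.80 and 0.131 in GOF replicates 1 to 6, and between 0.725 and 2.32 in the 6 control libraries. In counts, Isl1 was thus below Shox2 in 5 of 6 GOF libraries and in 1 of 6 control libraries, and GOF replicate 5 had the highest ratio of all 12. These counts are not scaled to exon length, which is 3.96 kilobases for Isl1 and 3.31 for Shox2. Per kilobase of exon, Isl1 was above Shox2 in only 3 of 6 control libraries. This pair too was chosen after the values were seen. The Isl1 promoter lies at chr13:116309639-116309938 and that of Shox2 at chr3:66981722-66982021, both on the minus strand of GRCm38.p6. The Shox2 window held CTTTGA on the opposite strand, read as TCAAAG from base 112, and the Isl1 window held none of the 3 motifs.

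Isl1: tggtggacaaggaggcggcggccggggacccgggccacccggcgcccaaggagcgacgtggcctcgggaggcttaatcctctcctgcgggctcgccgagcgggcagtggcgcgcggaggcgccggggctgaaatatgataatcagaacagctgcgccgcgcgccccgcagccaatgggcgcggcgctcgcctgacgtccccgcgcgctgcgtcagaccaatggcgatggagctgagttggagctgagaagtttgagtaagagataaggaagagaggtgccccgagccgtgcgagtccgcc

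Shox2: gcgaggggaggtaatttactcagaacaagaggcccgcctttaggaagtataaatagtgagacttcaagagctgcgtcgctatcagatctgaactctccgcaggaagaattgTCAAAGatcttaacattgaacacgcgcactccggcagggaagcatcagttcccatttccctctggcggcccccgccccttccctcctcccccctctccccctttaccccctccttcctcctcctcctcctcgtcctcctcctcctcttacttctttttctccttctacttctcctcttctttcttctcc

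**Figure D3:**
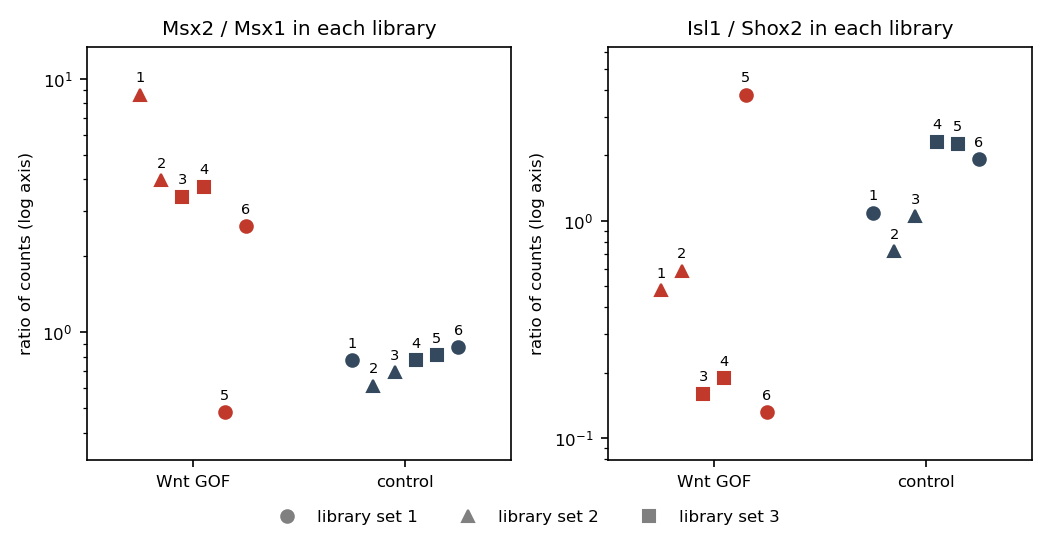
Ratio of Msx2 to Msx1 counts (left panel) and of Isl1 to Shox2 counts (right panel) in each library, on log axes, with Wnt GOF libraries left and control libraries right in each panel; numbers are replicate numbers and shapes library sets. GOF replicate 5 stands apart from the other 5 GOF libraries in both panels, at 0.482 for the first ratio and 3.80 for the second.

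Cpne5 (ENSMUSG00000024008, chromosome 17) encodes a copine, a calcium-dependent membrane-binding protein, and is used as a marker of the conduction system in mouse. It was at 11.96 to 20.6 CPM in GOF libraries, with a median of 15.4 CPM, and at 7.81 to 14.8 CPM in control libraries, with a median of 11.5 CPM. In 3 of 6 GOF libraries it lay above every control library. The log2 fold change was 0.48 ± 0.187, with an unadjusted p of 0.0224 and an adjusted p of 0.572 in edgeR, and the two-sided exact permutation test gave an unadjusted p of 0.0519. As for Tbx3, edgeR called it with library set in the model (adjusted p = 0.0407), and with the closest pairs summed it had an unadjusted p of 0.0610 and an adjusted p of 1.00. Without GOF replicate 5 the edgeR adjusted p was 0.372 for Cpne5 and 0.679 for Tbx3. In set 2 the GOF libraries held 11.96 and 12.5 CPM, against 7.81 and 8.53 CPM in control libraries, and in set 3 they held 18.2 and 19.1 CPM, against 12.4 and 14 CPM.

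The levels of these genes differed between the library sets. The lowest of the 3 set medians was that of set 2 in 9 of 10 regulators, Msx2 being the exception, against 38.1% of all tested genes. Summed over the 10 genes, libraries of set 2 held 108 to 119 CPM, those of set 1 169 to 208 CPM and those of set 3 191 to 208 CPM. Tbx18 alone made up 54.0 to 69.0 CPM of the sum in set 2, so these sums lean on that gene. Marker sums of some other compartments were low in the same libraries, and others were not. Epicardial markers, the compartment of Tbx18, summed to 241 to 296 CPM in set 2, against 307 to 346 CPM in set 1 and 294 to 349 CPM in set 3. Atrial markers summed to 231 to 290 CPM in set 2, against 314 to 370 CPM in set 1 and 266 to 316 CPM in set 3. Outflow tract and second heart field markers summed to 129.7 to 138 CPM in set 2, against 173 to 217 CPM in set 1 and 163 to 225 CPM in set 3, and cushion mesenchyme markers to 1389 to 1517 CPM, against 1532 to 2451 and 1750 to 1977 CPM. Endocardial markers summed to 565 to 623 CPM in set 2, against 513 to 639 CPM in set 1 and 548 to 611 CPM in set 3, and nodal channels and connexins to 221 to 269 CPM, against 207 to 240 and 197 to 225 CPM. The chamber list summed to 7358 to 8550 CPM in set 2, against 5469 to 6258 CPM in set 1 and 5539 to 6674 CPM in set 3. The part of these differences in the regulators' values was not tested.

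Within set 2 the GOF libraries stood apart from the control libraries in 7 of 10 regulators, against 55.1% of tested genes, within set 3 in 9 of 10, against 47.3%, and within set 1, which holds GOF replicate 5, in 3 of 10, against 29.9%. In set 2 both groups consist of a closest pair, and in set 3 the GOF group does. In 7 of 10 regulators at least 2 sets stood apart in 1 direction and none in the other, against 21.2% of tested genes. These were Tbx2, Tbx3, Msx2 and Cpne5 on the higher side and Tbx18, Isl1 and Rspo3 on the lower. Msx1, Bmp2 and Shox2 were the others.

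**Figure D4:**
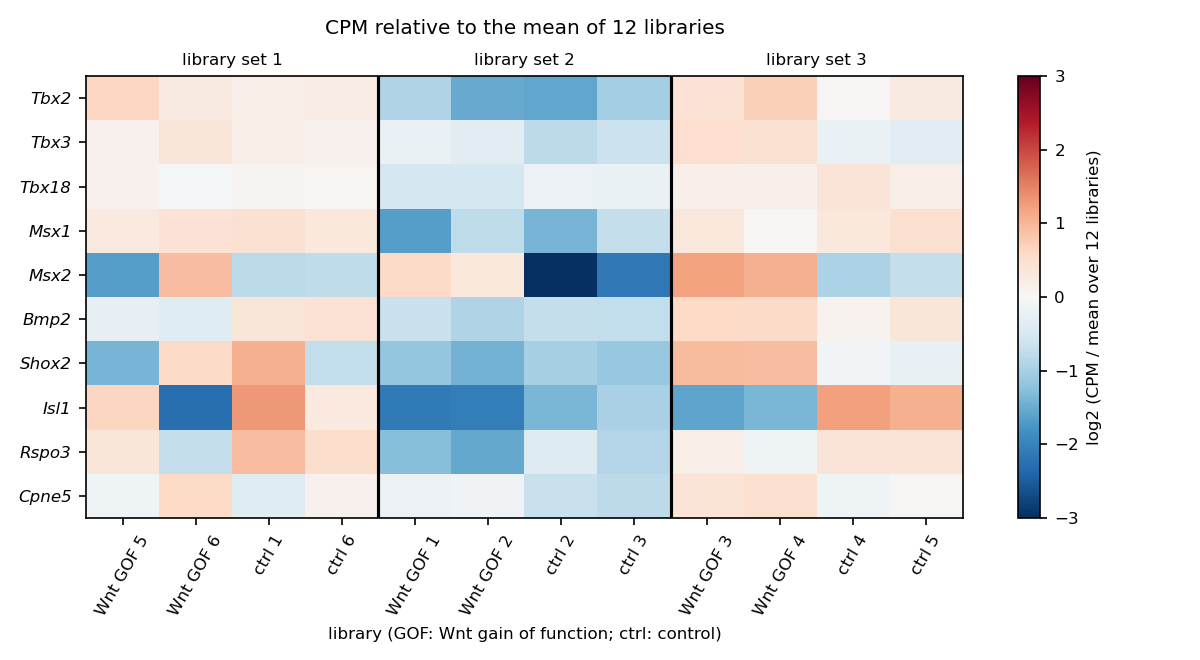
Level of each regulator (rows) in each library (columns), as log2 of CPM over its mean across the 12 libraries, with libraries grouped by set and Wnt GOF libraries left of control libraries within each set. Set 2 is the lowest set for every gene but Msx2, and the Isl1 and Msx2 rows part by genotype except in GOF replicate 5.

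Levels were compared between genes per kilobase of exon, with exon lengths of GENCODE M21 on GRCm38, while the build used by the authors is not given in the sources used here. Tbx18 was the most abundant in both groups, with 15.6 ± 3.28 CPM per kilobase in GOF and 17.4 ± 2.78 in control libraries, and stood clear of the next gene, Rspo3, at 4.41 ± 2.20 and 6.81 ± 2.76 CPM per kilobase. Bmp2 took the third place in both, at 4.30 ± 1.92 and 4.59 ± 1.52 CPM per kilobase. Msx2 took the fourth place in GOF libraries at 3.00 ± 1.39 CPM per kilobase and the eighth in control libraries at 0.846 ± 0.401. Isl1 took the ninth place in GOF libraries at 0.922 ± 0.985 CPM per kilobase and the fourth in control libraries at 2.83 ± 1.74.

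The middle of the order was crowded in both groups. Shox2 and Tbx3 held the fifth and sixth places, with 2.62 ± 1.86 and 2.62 ± 0.598 CPM per kilobase in GOF and 2.19 ± 1.49 and 1.96 ± 0.536 in control libraries. Tbx2 was last in both, at 0.353 ± 0.171 and 0.288 ± 0.122 CPM per kilobase. Neighbours in the order overlapped except Tbx18 over Rspo3 in both groups, Tbx3 over Cpne5 in GOF libraries and Cpne5 over Tbx2 in control libraries. Cpne5 and Msx1 filled the remaining places, at 1.16 ± 0.288 and 1.05 ± 0.455 CPM per kilobase in GOF and 0.836 ± 0.212 and 1.14 ± 0.478 in control libraries.

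Of the other genes of the pathways around these regulators, few passed the edgeR test. Among 22 tested genes of BMP signalling 0 rose and 0 fell, with a median log2 fold change of 0.04 and 2 at an unadjusted p under 0.05. These were the secreted BMP antagonist Nog, whose fitted difference was 1.55 ± 0.443 on the log2 scale (edgeR adjusted p = 0.235), and the ligand Bmp4, whose fitted difference was 0.54 ± 0.251 (edgeR adjusted p = 0.784). Nog was low in count, at 2.12 ± 1.07 CPM in GOF and 0.730 ± 0.516 CPM in control libraries, and was lowest of its group in GOF replicate 5, without which its edgeR adjusted p was 0.0900. EdgeR called it with library set in the model (adjusted p = 0.0148) but not with the closest pairs summed (adjusted p = 0.864).

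Of 7 tested R-spondin ligands, their Lgr receptors and the ligases they restrain, 1 rose and 0 fell, with a median of -0.11. Rnf43, a ligase that removes Wnt receptors and is itself a Wnt target, rose by 2.14 ± 0.316 on the log2 scale (edgeR adjusted p = 0.0095), a call that ended with the closest pairs summed (edgeR adjusted p = 0.161). Znrf3, its relative, was at 113 ± 30.8 CPM in GOF and 78.7 ± 18.6 CPM in control libraries, a log2 fold change of 0.52 with an adjusted p of 0.507 in edgeR, 0.0479 with library set in the model and 1.00 with the closest pairs summed. Among the copines other than Cpne5, 3 were tested and 0 passed, with Cpne2 at a log2 fold change of 0.29 and Cpne8 at -0.17.

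Of 8 tested transcription factors that act beside the regulators in canal and chamber, 0 rose and 1 fell, 4 had an unadjusted p under 0.05 and the median was -0.14. Hey2, a chamber repressor of the canal programme that bounds it towards the ventricle, fell to 72.4 ± 5.64 CPM in GOF libraries, against 97.4 ± 6.90 CPM in control libraries, which is -0.43 ± 0.0716 on the log2 scale (edgeR adjusted p = 0.0145, and 0.208 with the closest pairs summed). Its GOF libraries held 63.9 to 81.3 CPM and its control libraries 88.1 to 106 CPM, without overlap. Hey1, its counterpart at the atrial side, was at 8.06 ± 0.832 CPM in GOF and 11.6 ± 2.35 CPM in control libraries, or -0.52 on the log2 scale (edgeR adjusted p = 0.186, 0.0320 with library set in the model and 0.864 with the closest pairs summed). Foxn4, an activator of tbx2 in zebrafish, had 0 counts in all 12 libraries.

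Chamber genes, the targets that Tbx2 and Tbx3 repress, gave 0 calls among 10 tested, with a median of 0.12 and 3 at an unadjusted p under 0.05. The natriuretic peptide genes led them, Nppa at 0.52 ± 0.120 on the log2 scale (edgeR adjusted p = 0.0842) and Nppb at 0.50 ± 0.151 (edgeR adjusted p = 0.309). Without GOF replicate 5 both were called as higher (edgeR adjusted p = 0.0132 and 0.0260). With library set in the model Nppa was called (edgeR adjusted p = 0.0123) and Nppb was not (edgeR adjusted p = 0.232). With the closest pairs summed neither was called (edgeR adjusted p = 0.641 for Nppa). Among 9 tested nodal channels and connexins 0 rose and 0 fell, with a median of -0.05 and 1 at an unadjusted p under 0.05. That gene, Kcne1, a potassium channel subunit, was at -0.55 ± 0.218 on the log2 scale (edgeR adjusted p = 0.604) and was called as lower with library set in the model (edgeR adjusted p = 0.000103) but not with the closest pairs summed (edgeR adjusted p = 1.00). Kcnj3, an atrial and nodal potassium channel, had a log2 fold change of -0.27. Hcn4, the main pacemaker channel, was at 1.61 ± 0.738 CPM in GOF and 1.33 ± 0.507 CPM in control libraries, or 0.26 on the log2 scale (edgeR adjusted p = 0.999). Hcn2 and Gjd3 were below the low-count filter.

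**Figure D5:**
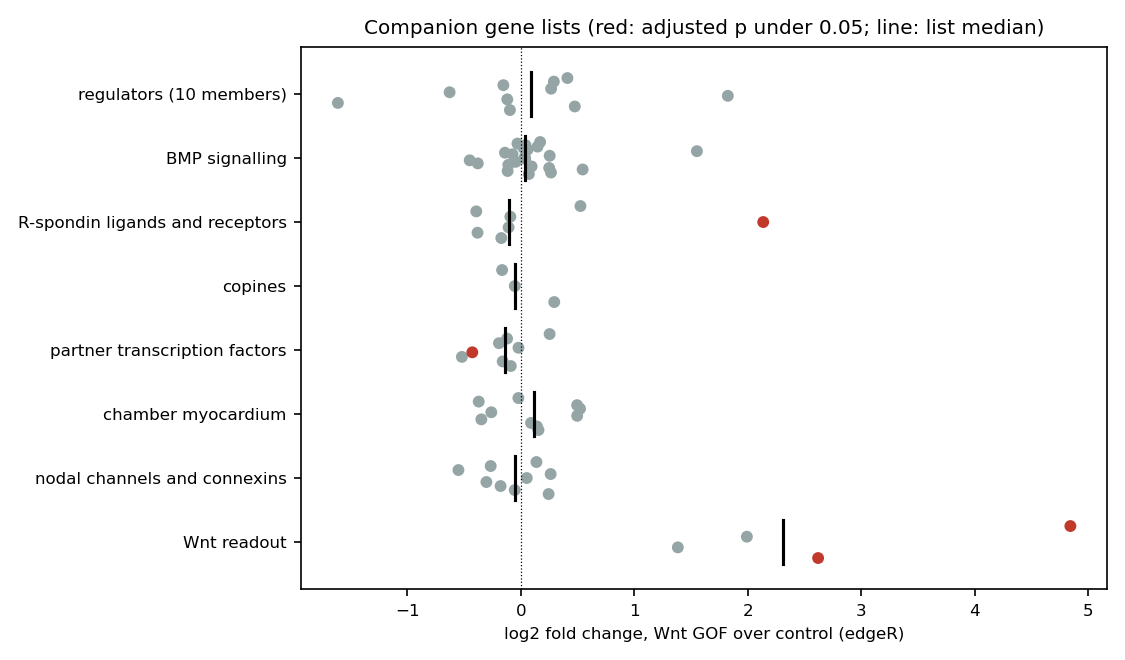
Log2 fold change, Wnt GOF over control, of each tested gene in the regulators' list and 7 companion lists; red points passed edgeR's test at an adjusted p under 0.05 and vertical lines are list medians. The passing genes are Rnf43, Hey2 and, in the Wnt readout, Axin2 and Notum, and the median is 0.08 for the regulators and 2.31 for the Wnt readout.

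Markers of the cell types that could bring these regulators into the samples were compared beside them. Ventricular markers summed to 7587 to 9477 CPM in GOF and 7859 to 10645 CPM in control libraries, and atrial markers to 231 to 329 CPM in GOF and 276 to 370 CPM in control libraries. Both sets of markers were thus detected in all 12 libraries. Of 4 ventricular, 6 atrial, 8 epicardial, 9 cushion, 5 outflow and second heart field, 6 endocardial, 3 cardiac ganglion and 2 Schwann cell genes tested, 0 rose and 0 fell in edgeR. Epicardial markers, the compartment of Tbx18, summed to 289 to 346 CPM in GOF and 241 to 349 CPM in control libraries, with a median log2 fold change of -0.04 over 8 genes. Cushion mesenchyme, which holds much of the Msx1 of the heart, summed to 1496 to 1977 CPM in GOF and 1389 to 2451 CPM in control libraries, with a median of -0.13 over 9 genes. Endocardial markers summed to 576 to 639 CPM in GOF and 513 to 605 CPM in control libraries, Schwann cell markers to 17.5 to 26.9 CPM in GOF and 20.2 to 26.7 CPM in control libraries, and foregut and lung epithelium markers, none of which passed the low-count filter, to 0.370 to 1.11 CPM in GOF and 0.397 to 1.19 CPM in control libraries. The lowest p in each of these lists belonged to Irx4 and Myh7, at -0.15 and -0.17 on the log2 scale, for ventricle, to Dkk3 and Kcnj3, at -0.48 and -0.27, for atrium, to Krt19 and Msln, at 0.17 and -0.38, for epicardium, to Pdgfra and Tgfb2, at -0.23 and 0.18, for cushion, to Npr3 and Emcn, at 0.44 and 0.17, for endocardium and to Erbb3, at -0.26, for Schwann cells. With library set in the model edgeR called Npr3 (adjusted p = 0.0257), and with the closest pairs summed it did not (adjusted p = 1.00).

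For Isl1, outflow tract and second heart field markers summed to 129.7 to 201 CPM in GOF and 131 to 225 CPM in control libraries, with Fgf8 and Tbx1 below the low-count filter. Wnt5a, an outflow ligand, was at -0.32 on the log2 scale (edgeR adjusted p = 0.676) and Fgf10, a progenitor ligand, at 0.80 (edgeR adjusted p = 0.810). Cardiac ganglion markers summed to 17.7 to 28.2 CPM in GOF and 16.6 to 35.03 CPM in control libraries. The highest GOF sum was that of replicate 5, the library in which Isl1 was also highest. The neuronal gene Stmn2 followed Isl1 across libraries (Pearson's r = 0.934, n = 12), at 2.90 ± 1.91 CPM in GOF libraries, 6.51 CPM in GOF replicate 5, and 6.76 ± 2.81 CPM in control libraries, which is -1.22 ± 0.396 on the log2 scale (adjusted p = 0.378 in edgeR, 0.0286 without GOF replicate 5, 0.00200 with library set in the model and 0.980 with the closest pairs summed). Tubb3 and Elavl4, the other tested genes of the ganglion list, were at 0.17 and -0.07 on that scale. Among all tested genes Stmn2 ranked 5 in likeness to Isl1, and its r includes the difference between the groups. The neuronal genes Phox2a, Prph, Th and Dbh were below the low-count filter. Dkk3, an atrial marker, was at 187 CPM in GOF replicate 5. Its mean was 104 CPM in GOF and 145 CPM in control libraries, and it fell without that replicate (edgeR adjusted p = 0.0481). The other atrial markers were mixed in GOF replicate 5. Kcnj3 also had its highest GOF value there, at 20.7 CPM, while Sln and Nr2f2 had their lowest, at 7.11 and 107 CPM. Stard10 and Nr2f1, at 1.48 and 5.77 CPM, lay below their GOF means of 1.74 and 7.57 CPM. The part of outflow, atrial or neuronal cells in the Isl1 values was not tested.

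For the 4 regulators with an unadjusted p under 0.05, the genes most like them across the 12 libraries were found by Pearson's r of log2 CPM over all tested genes, as a description in which all points share libraries and depth. Msx2 was closest to Nkd1 (r = 0.971) and Axin2 (r = 0.960), the Wnt inhibitors named above. Isl1 was closest to Gpc6 (r = 0.962) and Fbln5 (r = 0.954), a glypican and an elastic-fibre protein. Cpne5 was closest to Adamtsl2 (r = 0.963), a secreted matrix protein, and Ndn (r = 0.959), which encodes necdin. Tbx3 was closest to Tars (r = 0.937), a threonyl-tRNA synthetase, and Lrrtm4 (r = 0.924), a synaptic membrane protein.

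The authors' deposited table of their own comparison listed 0 of the 10 regulators among its 36 genes with an adjusted p under 0.05. In the authors' deposited table Msx2 had a log2 fold change of 1.78 with a p of 0.00301 and an adjusted p of 0.321. Isl1 had -1.68 with a p of 0.00736 and an adjusted p of 0.445 in the authors' deposited table. For the other 8 genes the authors' deposited table gave changes from -0.67 for Rspo3 to 0.48 for Cpne5, and all 10 signs were those of the edgeR fit.

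Reads on overlapping genes could not be told apart, since the strand setting of the counting is not given in the sources used here. Shox2 shares 153 exonic bases with Rsrc1 on the opposite strand, a gene with 10825 counts over the 12 libraries against 1258 for Shox2. Tbx3 shares 115 bases with the antisense gene Tbx3os1, which held 23 counts against 2468 for Tbx3. Tbx18, Rspo3 and Cpne5 overlap unnamed opposite-strand genes of GENCODE M21 by 970, 404 and 146 bases.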

How the data were processed

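Total RNA of heart ventricles was extracted with Trizol and made into libraries by Illumina protocols, per the labels' protocols. The deposited table of read counts holds whole numbers for each gene in each library, per the file headers, and the submitters' processing notes name Subread, featureCounts and edgeR, without versions. Of its 41422 rows, 622 repeat a gene with the same counts and were left out, and 27743 genes had at least 1 count. The deposited comparison table of the authors gives log2 fold changes, log2 expression values, p-values and adjusted p-values, per the file headers, and only its fold changes and p-values are printed.

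Columns were matched to samples by title. GOF libraries were tested against control libraries by the robust quasi-likelihood method of edgeR 4.0.16 in R 4.3.3, on TMM-scaled libraries and genes kept by filterByExpr with a minimum count of 10, with Benjamini-Hochberg adjustment over all 14774 genes and calls under 0.05. The SE comes from the F statistic, and the 95% interval from the SE and the normal distribution. The exact permutation test ran on log2 of CPM plus 0.5, with 0.00216 as its smallest p.

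Library sets came from average-linkage clustering of the correlations between libraries' deviations from their group means, with the tree cut into 3. Close pairs came from a chi-square per gene with at least 20 counts in the pair. Both were known from earlier work on these data. The regulators and all companion and marker lists were likewise chosen with earlier results of these data known. Named genes are the regulators, in each companion list those that passed and the 2 with the lowest p, 4 Wnt readout genes, and the 2 genes most like each regulator with an unadjusted p under 0.05. Of these, 1 gene is not reported here. Hcn4, Elavl4, the remaining atrial markers, genes that overlap a regulator and the genes under the filter were named outside that rule.

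On simulated data of this comparison with 14590 genes tested, edgeR recovered 82% of genes raised and 64% of those lowered by 1 on the log2 scale, 100% and 92% of those changed by 2, and 3.98% of calls were false. The simulated libraries were independent, without library sets, close pairs or a library like GOF replicate 5, so these rates need not hold for the real libraries. Alternatives were DESeq2 1.42.0 as a test and as scaling, library size alone, limma-voom (limma 3.58.1), a count filter left out or set at 1 CPM in 6 libraries, replicate numbers or library sets as a block, closest pairs summed, and each library left out.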

Additional observations from a re-analysis of the deposited data

Results flagged for a closer look

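Across the 20 groups formed by 10 regulators and 2 genotypes, 2 held a library far from the others by Dixon's criterion, which chance alone meets in about 1 group in 20. Isl1 in Wnt gain-of-function replicate 5 was at 11.5 CPM, while the other 5 GOF libraries lay between 1.55 and 2.87 CPM. The same library had the lowest Msx2 value of its group, 2.00 CPM, and the lowest Axin2 value, 3.77 CPM. Shox2 in control replicate 1 was at 16.8 CPM, while the other 5 control libraries lay between 3.62 and 7.54 CPM. That library also held the highest Isl1 and Rspo3 values of its group, at 18.3 and 33.2 CPM. What set either library apart was not tested.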

How the results depend on the processing

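Of 21 alternatives, 0 of 10 regulators were called in 18. DESeq2 called 1 regulator and 160 genes in all, library sets as a block 2 and 295, and the fits that left out 1 library 0 to 2 and 39 to 177. Limma-voom called 6 genes and the closest pairs summed 1, with 0 regulators each. Fewer genes were called without GOF replicate 1 (40), 2 (39), 3 (48) or 4 (42). Counts of the other settings stayed within 1.5 times 74. Directions held in all 21 alternatives for 8 regulators. Msx1 turned to 0.0606 without GOF replicate 1 (range -0.28 to 0.06), and Bmp2 to 0.0031 and 0.032 without GOF replicates 1 and 2 (range -0.27 to 0.03). The log2 fold change of Msx2 ranged from 1.59 to 2.04, of Isl1 from -2.42 to -1.42, of Tbx3 from 0.33 to 0.51, of Cpne5 from 0.38 to 0.57 and of Rspo3 from -0.83 to -0.46. Shox2 ranged from 0.03 to 0.70, Tbx2 from 0.13 to 0.49 and Tbx18 from -0.21 to -0.07. Replicate numbers did not pair the groups, with correlations of same-numbered libraries from -0.377 to 0.463. With the replicate block edgeR called 55 genes and 0 regulators, with Msx2 at 1.79 and Isl1 at -1.71. The cause of these differences was not tested. Counts under 100 limit Tbx2 and Msx1 in all 12 libraries, Msx2 and Isl1 in 7 of 12 each and Shox2 in 8 of 12. Close pairs, if each is 1 sample, leave fewer independent libraries than 12.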
